A study of Mus musculus with 6 samples.

Results

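Cell cycle genes were examined in tuft cells sorted from the mouse ileum, as a list of 48 genes chosen by name and known role out of the 23420 genes of the expression table. The list holds 12 DNA replication genes, 14 mitosis genes, 7 cyclins and kinases of S and M phase, 5 D cyclins and partner kinases, 6 inhibitors of cyclin-dependent kinases (CDKs), the pair Rb1 and E2f1, and 2 G cyclins. The question was how far the RNA of sorted tuft cells looks like that of cells that have left the cell cycle.

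The data came from 6 RNA-sequencing libraries that form 1 group, each labelled as a separate mouse replicate. The mice were Gfi1b-eGFP/+ on the C57BL/6J background, with no treatment named. In these animals 1 allele of the transcription factor gene Gfi1b carries enhanced green fluorescent protein, and the epithelial cells taken were GFP-positive, EpCam-positive, CD45-negative and excluded propidium iodide. The reporter selects cells by Gfi1b expression, so any epithelial cell that expresses Gfi1b would pass the gate. Expression was given as TPM (transcripts per 1000000), which is corrected for transcript length and sums to 1000000 in each library. Levels of different genes are set side by side on the assumption that the libraries cover whole transcripts, as in the methods of the authors. TPM keeps no read number. The depth is unknown, so how low a level a value of 0 can hide is not known. No dividing population was analysed here, so the levels have no proliferating reference beside them.

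A dividing cell passes through G1, copies its DNA in S phase and separates the copies in M phase, driven in turn by D, E, A and B cyclins with their kinases. CDK inhibitors hold these kinases back, and the retinoblastoma protein represses the genes of DNA replication until it is phosphorylated. Tuft cells are chemosensory cells that arise from dividing crypt progenitors, and mature tuft cells are generally regarded as postmitotic.

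The tuft cell label was checked with marker genes. Of 13 tuft cell markers, Sh2d6 was not analysed here and the other 12 were listed above 0 in every library, with summed levels of 7641, 7245, 4873, 5721, 4835 and 4801 TPM in replicates 1 to 6. The most abundant of the 12 was Trpm5, a cation channel gene of taste signalling, at 1141 ± 211 TPM (SD, n = 6). Dclk1, a kinase gene widely used to stain tuft cells, had 628 ± 130 TPM and Pou2f3, the transcription factor gene on which tuft cells depend, had 182 ± 48.7 TPM (SD, n = 6 each). None of the 12 was at 0 in any library, where 47.2% of all genes were above 0 in every library. Gfi1b, the gene used for the sort, is among the 12. The check covers tuft cell genes only, and the enterocyte list given below had a higher sum than these markers in every library.

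Most of the cell cycle genes were present. In all 6 libraries 44 of the 48 were listed above 0, against 47.2% of all genes, and 42 of 48 had at least 1 TPM in every library, against 39.9%. Their mean level was at least 10 TPM for 36 genes and at least 100 TPM for 3, namely the CDK inhibitor genes Cdkn1a and Cdkn1c and the mitotic gene Ube2c. The 4 genes listed at 0 somewhere were Bub1 in replicate 5, Ccne2 in replicate 1, Cdkn2c in replicate 4 and Cdkn2a in every library except replicate 1. A 0 is common at the mean levels of Bub1, Ccne2 and Cdkn2c, which were 3.88, 3.75 and 2.08 TPM. Of the 1907 genes with a mean of 2 to 5 TPM, 27.5% were listed at 0 in at least 1 library. The share was 0.448% of the 2457 genes with a mean of 20 to 50 TPM. Cdkn2a had a lower mean, at 0.387 TPM.

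On the log2(TPM + 1) scale the median over all 48 genes was 4.35 ± 0.51 (SD over 6 libraries), and the median over the 11047 genes above 0 in every library was 3.96 ± 0.11. By role it was 4.39 ± 0.65 for DNA replication, 4.12 ± 0.64 for mitosis, 4.42 ± 1.10 for the S and M phase cyclins and kinases, 4.85 ± 0.46 for the D cyclins with Cdk4 and Cdk6, 3.90 ± 0.33 for the CDK inhibitors, 2.91 ± 0.35 for Rb1 with E2f1 and 3.88 ± 0.45 for the G cyclins. Averaged over libraries, the replication and mitosis genes therefore stood at the level of an ordinary detected gene. Their medians overlapped that of the detected genes within the spread between libraries. In replicate 1 these medians were lower, at 3.45 and 3.21 against 3.99 for the detected genes. In replicate 3 they were higher, at 5.24 and 5.15 against 4.06. In bulk RNA, fewer dividing cells and less RNA per dividing cell cannot be told apart.

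**Figure D1:**
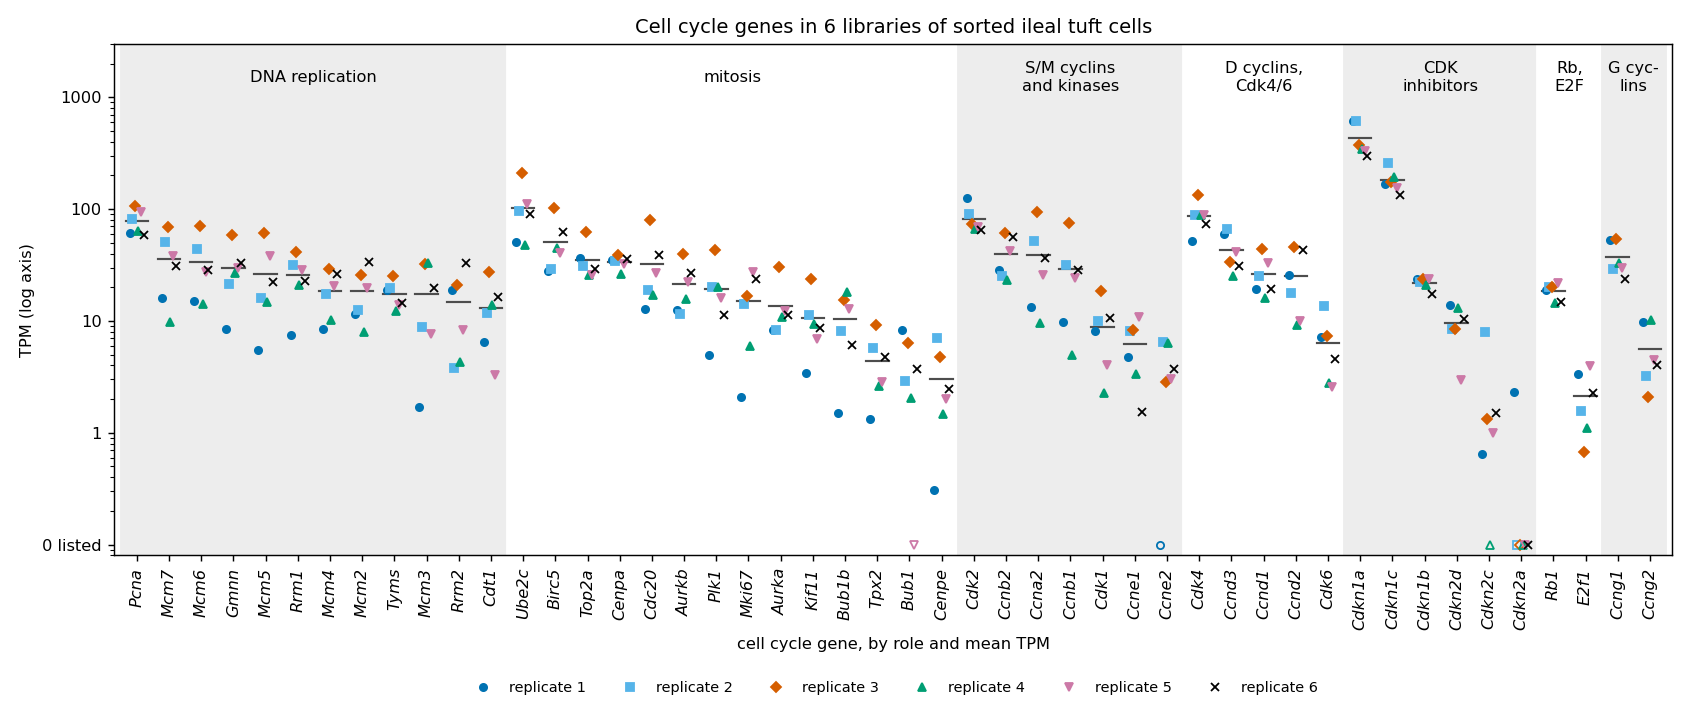
TPM of each of the 48 cell cycle genes on a log axis, by role and by mean level, with 1 symbol for each of 6 replicates and a short line at the mean of genes above 0 in every library. Symbols on the lowest line, open except for the cross, are values listed at 0. Cdkn1a stands above all other genes in every library, and replicate 3 (diamonds) is the highest in most replication and mitosis genes.

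All 12 DNA replication genes were listed above 0 in every library, each with at least 1 TPM. Pcna, the sliding clamp of the replicative polymerases, was the most abundant, at 61.2, 81.8, 106.5, 63.9, 93.7 and 58.2 TPM in replicates 1 to 6. It was the least variable of the 12, and its highest library had 1.83 times the lowest. In every library it stood between the 86.2th and 92.4th percentile of genes above 0.

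The MCM genes encode the subunits of the helicase that opens DNA at replication origins. Mcm7 had 16.1, 51.2, 69.1, 9.77, 37.7 and 31.3 TPM and Mcm6 15.03, 44.1, 71.1, 14.1, 27.4 and 28.3 TPM in replicates 1 to 6. Both were highest in replicate 3 and lowest in replicate 4, with replicate 1 close to the lowest. The other subunits had lower means and wide ranges, from 5.54 to 60.9 TPM for Mcm5, 8.48 to 29.1 TPM for Mcm4 and 7.97 to 34.0 TPM for Mcm2, and Mcm3 was the lowest of the 6. The 6 subunits act as 1 complex, but Mcm3 was highest in replicate 4 and Mcm2 in replicate 6, while the 4 others were highest in replicate 3. Mcm4 moved to replicate 6 after either rescaling described below.

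The 3 lowest means were those of Cdt1, which loads the helicase, Rrm2 and Mcm3. Cdt1 had 6.50, 11.7, 27.2, 13.9, 3.31 and 16.5 TPM in replicates 1 to 6. Rrm2, the small subunit of ribonucleotide reductase that is made in S phase, had 19.0, 3.82, 20.8, 4.26, 8.22 and 32.9 TPM, and Mcm3 had 1.70, 8.80, 32.6, 32.9, 7.61 and 19.9 TPM. Cdt1 was highest in replicate 3, Rrm2 in replicate 6 and Mcm3 in replicates 3 and 4. The large subunit gene Rrm1 ranged from 7.54 to 41.6 TPM and the thymidylate synthase gene Tyms from 12.4 to 25.4 TPM. Gmnn, whose product geminin holds Cdt1 back after origins have fired, ranged from 8.54 to 58.5 TPM and was lowest in replicate 1 and highest in replicate 3.

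Among the 14 mitosis genes, 13 were above 0 in every library and 12 had at least 1 TPM in every library. Ube2c, which carries ubiquitin to the anaphase-promoting complex, was the most abundant, at 51.0, 95.3, 212, 47.3, 112 and 90.6 TPM in replicates 1 to 6. Birc5, which encodes the chromosomal passenger survivin, had 28.1, 29.0, 102.5, 45.0, 40.1 and 62.1 TPM. Top2a, the topoisomerase that untangles sister chromatids, had 36.8, 31.1, 62.6, 25.8, 25.8 and 29.1 TPM. All 3 were highest in replicate 3, whose Top2a level lay far from the other 5 libraries.

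Mki67, the gene of the proliferation antigen Ki-67 (ENSMUSG00000031004.8, chr7:135689784-135716361, minus strand), had 2.08, 14.3, 16.9, 5.98, 27.1 and 23.7 TPM in replicates 1 to 6. It was highest in replicates 5 and 6 and lowest in replicate 1, so it did not follow Ube2c or Top2a. Between libraries it ranged 13.05-fold, from the 19.4th to the 74.7th percentile of genes above 0. The clamp gene Pcna exceeded Mki67 in 6 of 6 libraries, by 2.60 ± 1.09 on the log2(TPM + 1) scale (SD, n = 6; 2-sided p = 0.03125 from exact sign flips, 0.046875 after adjustment over 12 gene pairs). That p is the smallest that 6 libraries allow, and p-values here measure only the spread between these 6 samples. The tuft cell gene Dclk1 exceeded Mki67 in 6 of 6 libraries by 5.61 ± 1.44 on the same scale (SD, n = 6; exact p = 0.03125 by sign flips, 0.046875 adjusted). The cells were sorted as tuft cells, so this direction was set in advance and its p adds no support. The adjusted p of every pair depends on how many of the 12 pairs have 1 gene higher in every library.

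The 3 lowest mitosis genes were Tpx2, Bub1 and Cenpe. Tpx2, which activates Aurora A on the spindle, had 1.32, 5.74, 9.15, 2.64, 2.82 and 4.72 TPM in replicates 1 to 6. Bub1, a kinase gene of the spindle checkpoint, had 8.32, 2.88, 6.32, 2.05, 0 (listed at 0) and 3.70 TPM, and the kinetochore motor gene Cenpe had 0.31, 7.04, 4.72, 1.47, 1.99 and 2.47 TPM. These 3 genes peaked in replicates 3, 1 and 2 in that order, so the lowest genes shared no highest library.

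Aurora A itself, encoded by Aurka, had 8.24, 8.21, 30.7, 10.95, 12.3 and 11.3 TPM in replicates 1 to 6. Replicate 3 stood far above the other 5 libraries, which lay close together. The remaining mitosis genes are given by their ranges. Cdc20, the activator of the anaphase-promoting complex, ranged from 12.7 to 80.3 TPM, the kinase genes Aurkb and Plk1 from 11.5 to 39.3 TPM and from 4.92 to 43.2 TPM, the spindle motor gene Kif11 from 3.45 to 23.5 TPM and the checkpoint gene Bub1b from 1.51 to 18.1 TPM. Cenpa, the histone H3 variant gene of centromeres, was the steadiest, at 26.4 to 38.9 TPM. All but Bub1b of these 6 were highest in replicate 3, and Bub1b was highest in replicate 4. After either rescaling described below, Cenpa was highest in replicate 6.

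The cyclins of S and M phase were present with their kinase. Ccna2, which acts in S phase and G2, had 13.2, 51.8, 95.0, 9.52, 25.7 and 36.5 TPM in replicates 1 to 6. The mitotic cyclin genes had 9.83, 31.7, 75.5, 4.93, 24.4 and 28.3 TPM for Ccnb1 and 28.8, 25.3, 61.5, 23.2, 42.5 and 56.5 TPM for Ccnb2. Cdk1, the kinase that drives mitosis (ENSMUSG00000019942.13, chr10:69335146-69352938, minus strand), had 8.06, 9.89, 18.6, 2.26, 4.06 and 10.6 TPM. As deposited, all 4 genes were highest in replicate 3 and lowest in replicate 4. Ccnb2 was highest in replicate 6 after either rescaling described below. The range was widest for Ccnb1, at 15.3-fold, and narrowest for Ccnb2, at 2.65-fold.

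The E cyclins, which act with Cdk2 at the entry to S phase, were low. Ccne1 had 4.76, 8.10, 8.38, 3.35, 10.9 and 1.54 TPM in replicates 1 to 6, and for Ccne2 the values were 0 (listed at 0), 6.54, 2.84, 6.40, 3.03 and 3.70 TPM. Ccne1 exceeded Ccne2 in 4 of 6 libraries. The mean difference of 0.66 ± 1.36 on the log2(TPM + 1) scale did not pass 0.05 (SD, n = 6, exact p = 0.3125 by sign flips, 0.341 adjusted). Without replicate 1, where Ccne2 was listed at 0, the difference was 0.29. With all libraries and pseudocounts of 0.1 and 0.01 it was 1.19 and 1.73.

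Cdk2 differed in pattern from the cyclins it serves. Its levels in replicates 1 to 6 were 125.9, 89.8, 73.7, 66.3, 68.5 and 64.5 TPM, and they averaged 81.4 ± 23.6 TPM (SD, n = 6). It was highest in replicate 1, where most replication and mitosis genes were low, and the other 5 libraries fell within 64.5 and 89.8 TPM.

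Taken as a sum, the 12 replication genes, the 14 mitosis genes and Ccna2, Ccnb1, Ccnb2 and Cdk1 had 446, 736, 1505, 521, 763 and 826 TPM in replicates 1 to 6. The sum was highest in replicate 3 and lowest in replicates 1 and 4. Its mean was 799.6 ± 375.8 TPM (SD, n = 6), or 0.0446% to 0.150% of all TPM. Without replicate 3 the mean was 659 TPM.

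Replicate 3 was the highest library for 23 of the 29 summed genes above 0 in every library, where 24.0% of all such genes were highest in it. Replicate 1 was the lowest for 13 of the 29 (15.3% of all genes) and replicate 4 for 11 of the 29 (16.2% of all genes). The shares rest in part on how the libraries are scaled. After rescaling by median-of-ratios factors or to 1000000 without Rn45s and Gm20594, 19 of 29 were highest in replicate 3 under either, where 19.7% and 17.6% of all genes were. These 2 rescaled counts were chosen after the data had been seen. The ribosomal RNA precursor Rn45s took 25.1%, 24.8%, 23.1%, 26.7%, 32.6% and 32.2% of TPM in replicates 1 to 6, and Gm20594 took 2.13%, 2.09%, 1.56%, 5.36%, 5.18% and 5.64%. Both shares were lowest in replicate 3.

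Tuft cell markers did not share this order, and their sum in replicate 3, 4873 TPM, was among the 3 lowest. Set against the tuft cell markers of the same library, a ratio that does not depend on scaling, the summed replication and mitosis genes had 58.4, 101.6, 309, 91.0, 158 and 172 TPM per 1000 TPM of tuft cell markers. Replicate 3 was the highest and replicate 1 the lowest on this measure too, and the spread widened to 5.29-fold from 3.37-fold for the sum alone.

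**Figure D2:**
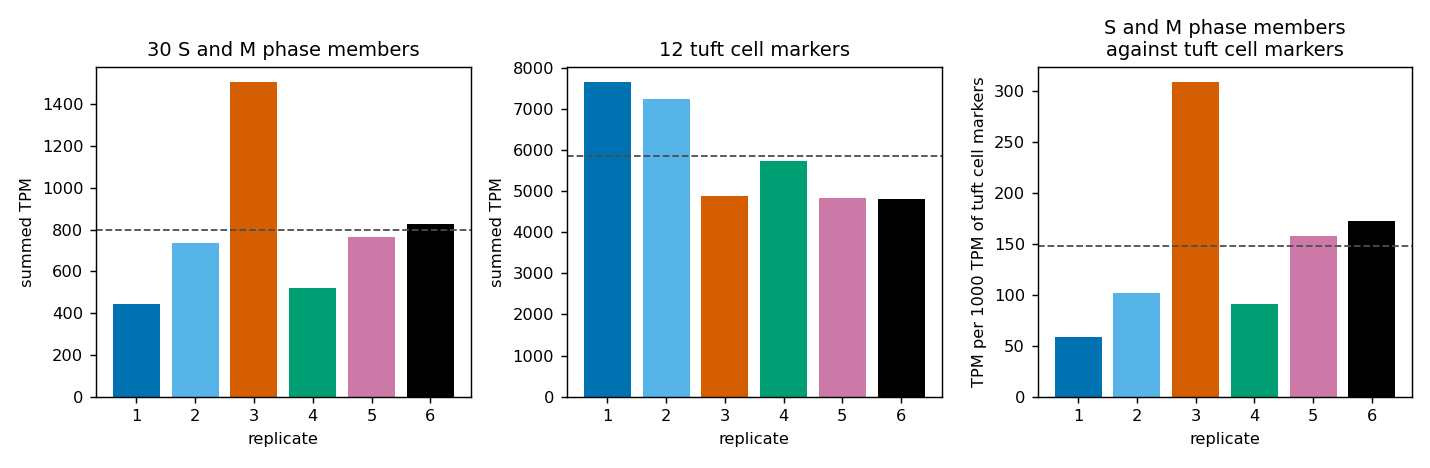
Bars give, for each of 6 replicates, the summed TPM of 30 replication, mitosis and S and M phase genes (left), the summed TPM of 12 tuft cell markers (middle) and the first sum per 1000 TPM of the second (right), with the mean as a dashed line. Replicate 3 has 1505 TPM of cell cycle genes, and the other 5 libraries 446 to 826 TPM.

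Markers of other cell types were also read in these libraries, and some of them may be expressed by tuft cells themselves. Over all genes, 47.2% were above 0 in every library. Crypt stem cell markers, which mark dividing cells of the crypt base, were above 0 in every library for 7 of 8 genes, with sums of 743.9, 827, 808, 620.2, 472 and 342 TPM in replicates 1 to 6. Their most abundant gene was Olfm4 at 501 ± 173 TPM, and Lgr5, the receptor gene that defines these cells, had 49.2 to 77.4 TPM. None of the 8 was at 0 throughout. The stem cell sum was high in replicates 1, 2 and 3, so it shared the high level of replicate 3 with the cell cycle genes but not the low level of replicate 1. Olfm4 made up most of this sum in every library. Of the 7 genes above 0 in every library, 3 were highest in replicate 3 and 3 in replicate 2 (24.0% and 21.4% of all genes). Lgr5 was among the latter and had 50.8 TPM in replicate 3.

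The Paneth cell list (7 of 7 genes above 0 in every library, Defa24 the most abundant at 5147 ± 4080 TPM) summed to 7529, 4089, 4455, 26976, 16356 and 8724 TPM in replicates 1 to 6. It was highest in replicate 4, where the cell cycle sum was low. The goblet cell list (7 of 7, led by Zg16 at 848 ± 511 TPM) summed to 1155, 1053, 2495, 2324, 2986 and 5118 TPM, with its highest value in replicate 6. The enterocyte list (8 of 8, led by Fabp1 at 7410 ± 3269 TPM) summed to 16272, 12424, 7714, 12131, 8361 and 9712 TPM. Fabp1 made up most of this sum in every library, and 6 of the 8 genes were highest in replicate 4 (12.5% of all genes).

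Of the enteroendocrine list, 3 of 9 genes were above 0 in every library, and the list summed to 385, 536.5, 403, 379, 486 and 439.8 TPM in replicates 1 to 6. Sct, which encodes secretin, led it at 384 ± 50.5 TPM. The lymphocyte list (8 of 11, led by Ptprc at 112 ± 41.97 TPM) summed to 202, 235, 131, 197, 315 and 341 TPM, highest in replicate 6, while Ptprc alone was highest in replicate 1 and lowest in replicate 6, and Ms4a1 was at 0 in every library. Ptprc encodes CD45, the protein against which the cells were gated. The myeloid list (2 of 6, without Adgre1, which was not analysed here, led by Cd68 at 2.69 ± 1.51 TPM) summed to 1.34, 4.58, 7.40, 4.46, 2.33 and 8.31 TPM, and S100a8 and S100a9 were at 0 in every library. Every SD of these lists is over 6 libraries. The part of other cell types in the cell cycle levels was not tested.

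D cyclins link growth signals to the cell cycle, and all 3 were present with their kinases. Ccnd1 had 19.4, 25.1, 43.6, 16.1, 32.8 and 19.4 TPM, Ccnd2 25.9, 17.9, 45.9, 9.14, 10.1 and 43.0 TPM, and Ccnd3 59.6, 66.1, 33.7, 25.0, 41.1 and 31.2 TPM in replicates 1 to 6. Ccnd3 had the highest mean, yet it was below Ccnd1 in replicate 3 and below Ccnd2 in replicates 3 and 6. All 3 were lowest in replicate 4.

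None of the D cyclin pairs passed 0.05. On the log2(TPM + 1) scale, Ccnd1 differed from Ccnd2 by 0.21 ± 0.95 (SD, n = 6; exact p = 0.594 by sign flips, 0.594 adjusted), with Ccnd1 higher in 3 of 6 libraries. The difference Ccnd1 minus Ccnd3 was -0.69 ± 0.70 (exact p = 0.09375 by sign flips, 0.125 adjusted), with Ccnd1 higher in 1 of 6, and Ccnd2 minus Ccnd3 was -0.90 ± 1.08 (exact p = 0.125 by sign flips, 0.15 adjusted), with Ccnd2 higher in 2 of 6. A p above the threshold does not show that these cyclins were equal.

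Cdk4 and Cdk6 are the kinases that D cyclins activate. Cdk4 (ENSMUSG00000006728.12, chr10:127063534-127067920, plus strand) had 51.7, 88.9, 134, 88.1, 88.0 and 73.0 TPM in replicates 1 to 6 and Cdk6 had 7.19, 13.7, 7.36, 2.78, 2.58 and 4.55 TPM. Cdk4 was lowest in replicate 1 and highest in replicate 3, while Cdk6 was highest in replicate 2. Cdk4 exceeded Cdk6 in 6 of 6 libraries by 3.71 ± 0.89 on the log2(TPM + 1) scale (SD, n = 6; exact p = 0.03125 by sign flips, 0.046875 adjusted). It also exceeded the mitotic kinase gene Cdk1 in 6 of 6, by 3.33 ± 0.91 (SD, n = 6; exact p = 0.03125 by sign flips, 0.046875 adjusted). On TPM, Cdk4 was 6.42 to 39.0 times Cdk1 within a library.

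The CDK inhibitors spanned the whole range of levels. Cdkn1a, which encodes p21 (ENSMUSG00000023067.14, chr17:29090976-29100727, plus strand), was the most abundant of the 48 genes in every library, at 611, 620.0, 376, 346, 333 and 299.9 TPM in replicates 1 to 6. It stood between the 97.4th and 98.5th percentile of genes above 0. Replicates 1 and 2 were the highest, and these 2 libraries also had the highest sums of tuft cell markers and of the enterocyte list. Whether Cdkn1a follows the tuft cell content of a library was not tested. Per 1000 TPM of tuft cell markers, Cdkn1a had 79.9, 85.6, 77.2, 60.5, 68.8 and 62.5 TPM, a 1.42-fold range against 2.07-fold on TPM.

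Cdkn1c, which encodes p57, had 169, 259, 173, 194, 156 and 134 TPM in replicates 1 to 6 and was the gene with the second highest mean of the 48. Cdkn1b, which encodes p27, had 23.7, 22.2, 23.6, 21.2, 23.6 and 17.5 TPM and varied least of the 44 genes above 0 in every library, by 1.35-fold. Both were lowest in replicate 6, and Cdkn1c was highest in replicate 2. Cdkn1a exceeded Cdkn1b in 6 of 6 libraries by 4.18 ± 0.41 on the log2(TPM + 1) scale (SD, n = 6; exact p = 0.03125 by sign flips, 0.046875 adjusted). Cdk2, a target of both proteins, exceeded Cdkn1b in 6 of 6 by 1.81 ± 0.32 (SD, n = 6; exact p = 0.03125 by sign flips, 0.046875 adjusted).

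Among the 3 INK4 genes of the 48, whose products bind Cdk4 and Cdk6, Cdkn2a and Cdkn2c were low. Cdkn2a had 2.32 TPM in replicate 1 and was listed at 0 in each of replicates 2 to 6, so its level came from replicate 1 alone. Cdkn2c, listed at 0 in replicate 4, had 0.64, 8.03, 1.32, 0, 1.00 and 1.51 TPM, with replicate 2 far above the others. Cdkn2d had 13.9, 8.52, 8.53, 13.1, 2.94 and 10.5 TPM, lowest in replicate 5 and above Cdkn2c in every library. It stood between the 25.2th and 56.2th percentile of genes above 0. The difference Cdkn2c minus Cdkn2d was -2.05 ± 1.38 on the log2(TPM + 1) scale and below 0 in 6 of 6 libraries (SD, n = 6, exact p = 0.03125 by sign flips, 0.046875 adjusted), though in replicate 2 it was only -0.08. Its size depended on the pseudocount, at -3.03 ± 2.41 with 0.1 and -3.65 ± 3.59 with 0.01 (SD, n = 6 each). Cdkn2b, an INK4 gene outside the 48 that was picked after its values were seen, had 55.7, 82.6, 51.1, 40.95, 41.7 and 33.5 TPM, above Cdkn1b in 6 of 6 libraries.

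Set against Mki67 in the same library, Cdkn1a was 294, 43.3, 22.3, 57.8, 12.3 and 12.7 times as abundant on TPM in replicates 1 to 6. The ratio was above 1 everywhere, and its spread followed mostly the Mki67 level, which was lowest in replicate 1. The summed replication and mitosis genes came to 0.730, 1.19, 4.00, 1.51, 2.29 and 2.76 times the Cdkn1a level. Replicate 1 was thus the only library in which p21 transcripts exceeded the sum.

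Rb1, the retinoblastoma gene, had 19.1, 20.2, 20.1, 14.5, 21.99 and 14.8 TPM in replicates 1 to 6, a narrow range. E2f1, which encodes an activator of replication genes, had 3.34, 1.55, 0.67, 1.11, 3.93 and 2.27 TPM. Both were highest in replicate 5. E2f1 was lowest in replicate 3, the library in which most replication genes were highest. That low rests on 1 value of 0.67 TPM, for a gene with a mean of 2.145 TPM. Genes with a mean of 2 to 5 TPM and no 0 had a median range of 6.78-fold between libraries, and E2f1 had 5.87-fold.

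The G cyclins are not tied to S or M phase, and Ccng1 is a target of p53, as is Cdkn1a. Ccng1 had 52.9, 29.2, 54.4, 32.7, 29.8 and 23.9 TPM in replicates 1 to 6 and Ccng2 had 9.73, 3.24, 2.10, 10.2, 4.51 and 4.05 TPM. Ccng1 was high in replicates 1 and 3, and Ccng2 in replicates 1 and 4. Ccng1 exceeded Ccng2 in 6 of 6 libraries by 2.62 ± 0.86 on the log2(TPM + 1) scale (SD, n = 6; exact p = 0.03125 by sign flips, 0.046875 adjusted).

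**Figure D3:**
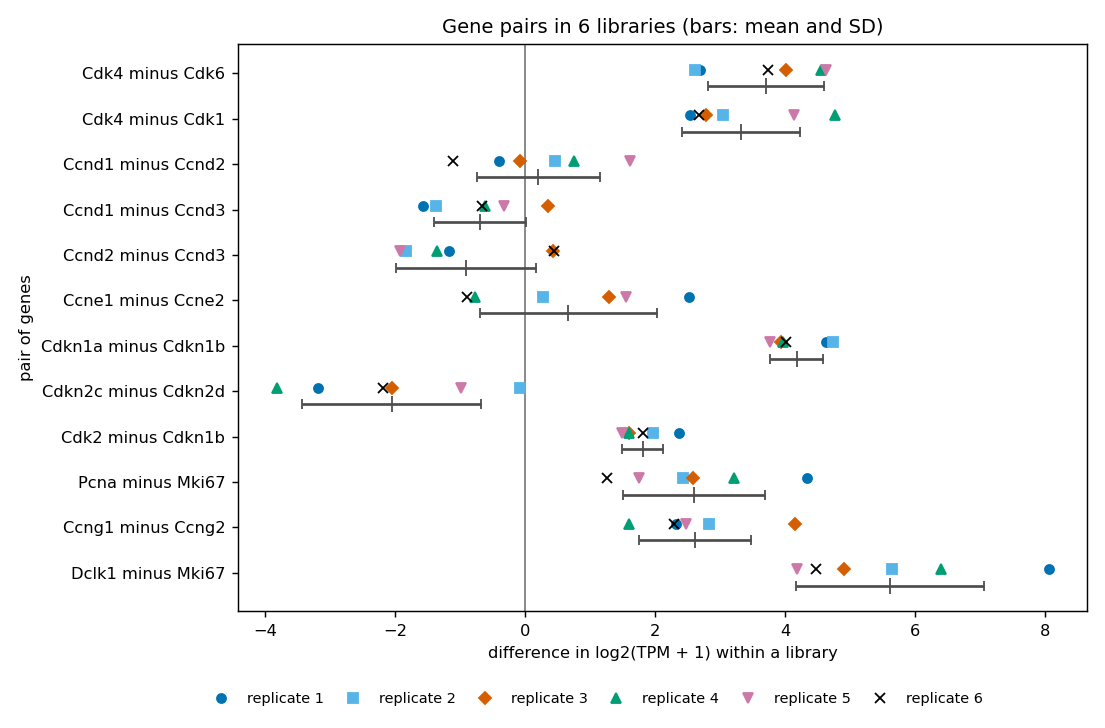
Difference in log2(TPM + 1) between the genes of 12 pairs, with 1 symbol for each of 6 replicates and the mean and SD as a bar under them. For 8 pairs every library lies on the same side of 0, and for the 3 pairs of D cyclins and the pair of E cyclins the libraries lie on both sides.

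Further genes of the same pathways were read from longer lists. For the counts above 0 in every library given below, the share over all genes was 47.2%. Of 44 more replication genes, 36 were above 0 in every library, and the list summed to 591, 702, 974, 537, 522 and 624 TPM in replicates 1 to 6. The most abundant were the histone mRNA binding gene Slbp at 48.9 ± 12.7 TPM, the single-strand DNA binding gene Rpa3 at 48.3 ± 18.1 TPM and the clamp loader gene Rfc2 at 45.5 ± 17.2 TPM (SD, n = 6 each). The sum was highest in replicate 3, as for the 12 replication genes of the main list, and 20 of the 36 genes were highest there (24.0% of all genes), or 17 and 15 of 36 after the 2 rescalings (19.7% and 17.6% of all genes).

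Of 52 more mitotic genes, 43 were above 0 in every library, and their sum was 464, 710.2, 1157, 509, 590.1 and 659 TPM in replicates 1 to 6. Cks2, a partner of mitotic CDKs, led at 75.7 ± 29.1 TPM, followed by the kinetochore gene Spc24 at 37.3 ± 13.5 TPM and the securin gene Pttg1 at 36.9 ± 11.2 TPM (SD, n = 6 each). Replicate 3 was again the highest and replicate 1 the lowest. In replicate 3, 23 of the 43 genes were highest (24.0% of all genes), or 22 of 43 after either rescaling (19.7% and 17.6% of all genes). Both lists shared the high level of replicate 3 with the main list, in the same libraries, and so they add no samples. As deposited, the further replication genes were lowest in replicate 5, at 522 TPM, with replicate 4 close to it at 537 TPM. The 12 of the main list were low in replicate 4, at 232 TPM, but not in replicate 5, at 328 TPM.

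Genes that act around the RB and DREAM repressors, which silence cell cycle genes in resting cells, were all present, 12 of 12 above 0 in every library, and summed to 180.2, 190.4, 192, 143, 144 and 127 TPM in replicates 1 to 6. The most abundant were the MuvB subunit genes Lin37 at 30.5 ± 13.6 TPM and Rbbp4 at 21.5 ± 6.39 TPM and the E2F partner gene Tfdp1 at 20.8 ± 6.04 TPM (SD, n = 6 each). The sum was highest in replicate 3 and lowest in replicate 6. Of 12 further E2F genes and G1 regulators, 10 were above 0 in every library, with sums of 112, 115, 148, 96.1, 99.8 and 115 TPM. The phosphatase gene Cdc25a, at 31.8 ± 5.63 TPM, Myc, at 17.0 ± 7.29 TPM, and the CDK-activating cyclin gene Ccnh, at 17.0 ± 8.71 TPM, were the most abundant (SD, n = 6 each).

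The anaphase-promoting complex, which also works outside mitosis, was above 0 in every library for 16 of 16 genes and summed to 542, 673, 752, 529, 574 and 522 TPM in replicates 1 to 6. Anapc13 led at 212 ± 26.8 TPM, followed by Anapc2 at 56.6 ± 9.33 TPM and Anapc5 at 50.4 ± 24.7 TPM (SD, n = 6 each). Of 18 p53 targets and antiproliferative genes, 15 were above 0 in every library, and the list summed to 644, 742, 638, 578, 515 and 434 TPM. The stress gene Gadd45g at 159 ± 52.4 TPM, the antiproliferative gene Btg2 at 81.9 ± 18.8 TPM and the apoptosis gene Bax at 60.5 ± 23.5 TPM were the most abundant (SD, n = 6 each), and Btg3 was listed at 0 in every library. This sum was highest in replicate 2 and lowest in replicate 6, as was Cdkn1a.

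Some values can hold reads of neighbouring genes, since the strand setting is not given in the sources used here. Of the 50-base stretches in each gene's GENCODE M21 transcripts, 17.0% for Cdk4, 15.1% for Ube2c, 14.4% for Ccne2, 11.96% for Rb1, 11.4% for Ccna2, 6.78% for Mcm7 and 5.23% for Tyms occur in transcripts of other genes. For Cdk4 most lie in Tspan31, for Ube2c in Tnnc2, for Ccne2 in Ints8, for Rb1 in Rcbtb2 and Lpar6, for Ccna2 in Exosc9 and for Mcm7 in Ap4m1, all on the opposite strand. The other 41 genes shared at most 5% of their stretches. These are shares of sequence and not of reads, so they set no bound on how far a level could be off.

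The promoters of the cell cycle genes were searched for 3 short motifs known from cell cycle promoters, because most replication and mitosis genes peaked in the same library. The motifs were the CHR element, TTTGAA or TTCGAA, the CCAAT box, CCAAT, and the E2F element, TTCCCGC or TTCGCGC or TTGGCGC or TTGCCGC, each on both strands, with overlapping matches counted and CCAAT and E2F matches able to overlap. RefSeq promoters on GRCm38.p6 run from 250 bases before to 50 bases after a gene's start, and 43 of them matched 38 of the 48 genes. The 8 promoters of CDK inhibitor genes belong to 5 genes, with 2 each for Cdkn1a, Cdkn2a and Cdkn2c and none for Cdkn1c. A CHR element was found in 10 of 12 mitosis promoters (83.3%), in 2 of 11 replication promoters (18.2%) and in 0 of 8 promoters of CDK inhibitor genes, against 19.2% of all 32851 promoters. An E2F element was found in 8 of 11 replication promoters (72.7%) and 1 of 12 mitosis promoters (8.33%), with 2 of 8 for the CDK inhibitor genes (25%), against 9.57% of all. A CCAAT box was found in 11 of 12 mitosis promoters (91.7%) and 9 of 11 replication promoters (81.8%), with 4 of 8 for the CDK inhibitor genes (50%), against 37.4% of all. CHR and CCAAT together were found in 83.3% of mitosis promoters and in 7.52% of all promoters. Among 19848 promoters of the genes measured here, the shares were 16.9% for CHR, 12.4% for E2F, 38.1% for CCAAT and 6.88% for CHR with CCAAT. The motifs were picked because they are known from such promoters, so their shares say nothing about these libraries. A match is a description of the letters, not a binding site or a cause, and an absent match says only that these letters are not in the window.

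Promoters of 5 genes are shown, 4 with matches and that of the most abundant cell cycle gene. They are the mitosis genes Ube2c (chr2:164769679-164769978, plus strand) and Top2a (chr11:99024140-99024439, minus strand), the kinase gene Cdk1 (chr10:69352863-69353162, minus strand), the helicase gene Mcm6 (chr1:128359656-128359955, minus strand) and, with none of the motifs, the downstream promoter of the 2 given for Cdkn1a (chr17:29093519-29093818, plus strand). Each is written 5′ to 3′ on the gene's strand from RefSeq on GRCm38.p6, and capitals mark every match to the 3 motifs on either strand.
Ube2c: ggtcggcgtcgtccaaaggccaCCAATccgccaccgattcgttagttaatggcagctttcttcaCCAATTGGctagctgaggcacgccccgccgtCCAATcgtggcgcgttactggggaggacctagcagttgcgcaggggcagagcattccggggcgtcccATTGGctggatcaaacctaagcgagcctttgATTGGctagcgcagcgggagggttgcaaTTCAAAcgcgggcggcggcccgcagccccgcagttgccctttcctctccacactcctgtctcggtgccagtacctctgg
Top2a: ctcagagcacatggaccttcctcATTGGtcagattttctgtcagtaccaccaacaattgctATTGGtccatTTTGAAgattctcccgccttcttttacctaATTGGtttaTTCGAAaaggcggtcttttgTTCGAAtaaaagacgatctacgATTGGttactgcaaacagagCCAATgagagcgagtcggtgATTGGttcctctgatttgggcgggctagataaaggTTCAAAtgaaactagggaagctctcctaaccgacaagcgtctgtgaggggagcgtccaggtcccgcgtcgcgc
Cdk1: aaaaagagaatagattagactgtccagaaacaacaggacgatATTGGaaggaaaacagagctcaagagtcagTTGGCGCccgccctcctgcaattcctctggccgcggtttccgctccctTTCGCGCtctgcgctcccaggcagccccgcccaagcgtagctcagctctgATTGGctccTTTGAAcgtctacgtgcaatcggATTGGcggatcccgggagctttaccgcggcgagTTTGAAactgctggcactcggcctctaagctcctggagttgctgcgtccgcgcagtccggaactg
Mcm6: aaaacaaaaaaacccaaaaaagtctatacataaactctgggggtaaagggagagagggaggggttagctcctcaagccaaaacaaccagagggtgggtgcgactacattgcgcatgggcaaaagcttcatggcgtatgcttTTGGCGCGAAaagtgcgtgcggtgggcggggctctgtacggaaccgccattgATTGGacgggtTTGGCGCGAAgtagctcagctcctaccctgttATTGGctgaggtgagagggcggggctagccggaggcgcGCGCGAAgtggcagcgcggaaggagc
Cdkn1a: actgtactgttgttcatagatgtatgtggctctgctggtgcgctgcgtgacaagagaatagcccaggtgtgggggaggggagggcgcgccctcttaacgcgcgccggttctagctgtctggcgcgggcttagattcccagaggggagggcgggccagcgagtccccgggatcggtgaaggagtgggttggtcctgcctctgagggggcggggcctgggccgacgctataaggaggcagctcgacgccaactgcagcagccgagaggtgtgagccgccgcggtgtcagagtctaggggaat
The Ube2c window held 1 CHR match and 6 CCAAT matches, and that of Top2a held 4 and 6. Cdk1 had matches to all 3 motifs, with 2 CHR, 3 CCAAT and 2 E2F matches, and Mcm6 had 2 CCAAT and 5 E2F matches but no CHR match. Both Cdkn1a windows had 0 matches to any of the 3, and the other 6 promoters of CDK inhibitor genes each had a CCAAT or an E2F match.

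Several limits hold for all of these values. The libraries form 1 group from 1 tissue, with no dividing population, no other epithelial cells and no treatment beside them. Whether and how far the levels differ from those of cycling cells was therefore not measured. RNA levels of cyclins and kinases do not give the activity of the proteins or the share of cells in any phase. High p21 and p57 transcripts and replication and mitosis transcripts were found in the same pools of cells, and whether they came from the same cells was not tested. The sorted pools also held transcripts used as markers of other cell types, and which cells gave the cell cycle transcripts was not tested.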

How the data were processed

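RNA of sorted ileal tuft cells was sequenced by a modified SMART-Seq2 protocol in 6 libraries, by the authors' methods. The sample labels name 3′ polyA and 10X Genomics Chromium preparation beside SMART-Seq2 for every library, and TPM of different genes could not be set side by side in a 3′ library. The authors aligned paired-end reads with Bowtie to the UCSC mm10 transcriptome, with 1 mismatch allowed and reads of more than 15 alignments dropped. TPM values from RSEM v1.2.3 were deposited. The authors also name DESeq2, which was not used here. The strand setting was not given in the sources used here. Depth is unknown, and no interval or count model was computed.

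The members and lists were chosen with earlier results of these data known, and 2 marker genes were left out after their values were seen, though not because of them. They are not Sh2d6 and Adgre1, 2 further markers that have no value in the table. All 48 genes are named, with every library's value for Mki67, Top2a, Pcna, the D, A, B and E cyclins, Cdk1, Cdk2, Cdk4, Cdk6, the CDK inhibitors, Rb1, E2f1, the G cyclins, the 3 highest and 3 lowest replication and mitosis genes and any gene past Dixon's limit, and the others by range. Of further pathway lists the 3 most abundant genes are named, and of marker lists the most abundant gene and those at 0 throughout. The tuft and stem cell markers Dclk1, Pou2f3 and Lgr5 are named besides, and Pou2f3 and Lgr5 were picked after their values were seen.

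Genes were compared within libraries on log2(TPM + 1) by flipping signs in all 64 ways (exact, 2-sided permutation), adjusted by Benjamini-Hochberg over 12 pairs. Alternatives were pseudocounts of 0.1 and 0.01, values under 0.1 TPM set to 0, rescaling to 1000000 after Rn45s and Gm20594 were taken out or by median-of-ratios factors, the exact Mann-Whitney test over 924 assignments, other detection thresholds and sets of libraries. Functions were tested on simulated data. Positions come from GENCODE M21 on GRCm38, matched by symbol. Software was Python 3.11.15 with matplotlib 3.10.9, scipy 1.17.1, pandas 2.3.3 and numpy 2.4.6.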

Additional observations from a re-analysis of the deposited data

Results flagged for a closer look

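In 8 of 109 measures screened (48 single cell cycle genes, 12 gene pairs, the role medians, sums of lists and the most abundant genes of other lists), 1 library lay farther from its nearest neighbour than Dixon's critical ratio of gap to whole range for 6 libraries (0.625). Chance flags about 1 in 20 such groups, which is 5.45 of 109, so the number of flags is near what chance gives. Many of the measures share genes and are not independent. The screen used TPM for single genes, and on the log2(TPM + 1) scale Ccne2 (0.666), Cdkn2d (0.662) and Cdkn1b (0.626) would also pass.

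Replicate 3 was the high library in 5 of the 8. Top2a had 62.6 TPM in it, with no more than 36.8 TPM in another library (ratio 0.701), and Aurka at 30.7 and at most 12.3 TPM (0.819). The summed S and M phase genes were at 1505 and at most 826 TPM (0.641), the further mitotic genes at 1157 and at most 710.2 TPM (0.645), and the further E2F genes with G1 regulators at 148 and at most 115 TPM (0.627). Top2a and Aurka kept a ratio above 0.625 under both rescalings (at least 0.720 and 0.703). The sums did not, and all fell below 0.625 under both. By median-of-ratios factors the S and M phase sum was 1365.5 TPM in replicate 3, 869.7 TPM in replicate 6 and 415.1 TPM in replicate 1. Without Rn45s and Gm20594 it was 1996.6, 1329.5 and 613.3 TPM in the same libraries. On the log2(TPM + 1) scale the ratio was 0.602 for Top2a and 0.704 for Aurka.

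Cdkn2a was at 2.32 TPM in replicate 1 and listed at 0 in the other 5 (ratio 1), so without replicate 1 it was at 0 throughout. Cdkn2c was at 8.03 TPM in replicate 2 and at most 1.51 TPM elsewhere (0.812), and its mean without replicate 2 was 0.894 TPM. Its ratio was 0.772 and 0.779 under the rescalings and 0.582 on the log2(TPM + 1) scale. Rpa3 was at 13.4 TPM in replicate 1 and at least 50.3 TPM elsewhere (0.693), and the ratio was 0.821 on the log2(TPM + 1) scale but 0.605 and 0.607 under the rescalings, below the critical value.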

How the results depend on the processing

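Every gene pair kept its direction on average and its side of 0.05 (adjusted p) under pseudocounts of 0.1 and 0.01, the low-value floor of 0.1 TPM, both rescalings and the exact Mann-Whitney test. For a pair with 1 gene higher in 6 of 6 libraries, p follows from the signs alone, and pseudocounts and rescalings cannot change these, so p could not move. With 5 libraries the sign-flip test cannot go below 0.0625, and leaving out each replicate is given as values. The 8 pairs past 0.05 then moved by less than 1 SD and kept their sign, while Ccnd1 minus Ccnd2, which had not passed, ran from -0.07 to 0.47. Within replicates 1 to 3 and 4 to 6 alone, all 12 differences moved by less than 1 SD, but 2 that had not passed turned sign, Ccnd1 minus Ccnd2 in 1 to 3 (-0.004) and Ccne1 minus Ccne2 in 4 to 6 (-0.03). The count of genes above 0 in every library was 44 to 45 without each replicate, 44 at 0.1 TPM and 42 at 1 TPM. The role medians moved by over 1 SD only for the CDK inhibitors as a mean over genes (4.25) and after rescaling without Rn45s and Gm20594, which raises every gene by construction, to 5.38 for the D cyclins and kinases, 4.40 for the CDK inhibitors, 3.35 for Rb1 with E2f1 and 4.37 for the G cyclins. For the CDK inhibitor mean the cause was not tested. Without each replicate the summed S and M phase genes averaged 659 to 870.3 TPM. Among 48 single gene means, 17 rose by over 1 SD under that rescaling and 0 moved so far when 1 replicate was left out. Depth is unknown, so how far it limits genes listed at 0 was not measured.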
